A study of Rattus norvegicus with 6 samples.

Results

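The genes described here are 33 markers of the segments of the nephron, the filtering and transporting unit of the kidney, together with the transporters and channels that its tubule cells use. They were chosen by gene symbol, with 1 probe taken for each gene as the one with the highest mean of the authors' log2 values over the 6 arrays, and they are 33 of the 19958 genes with a gene ID on the array. By segment they comprise 3 genes of the glomerulus, 13 of the proximal tubule, 5 of the thick ascending limb, 5 of the distal tubule and 7 of the collecting duct.

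RNA of rat kidney, rat liver and FAO cells, a line of rat hepatoma cells that keeps many liver functions, was measured on 6 one-colour expression arrays. Wistar rats (called mice in part of the labels, with age and sex not given there) had been fed the AIN-93G purified diet without iron or the same diet with iron for 4 weeks. FAO cells had been exposed for 24 hours to 100 µM of deferoxamine (DFO), which binds iron and keeps it from cells, or to the vehicle with 0 µM. The groups were therefore iron-free and control kidney, iron-free and control liver, and deferoxamine-treated and untreated FAO cells, and each was 1 array hybridised with RNA pooled from 6 animals or 3 cultures. With 1 array for each group no difference had a replicate check and no p-value was computed. A gene was called higher or lower when its signal differed at least 2-fold, which is 1 on the log2 scale. Signals are Agilent processed intensities after every array was brought to a common 75th percentile, and differences are on the log2 scale. The ± beside a difference is its spot standard error, estimated from how far repeated spots of probes with similar signal lay apart, and it covers spot noise, not animals or cultures. Where only 1 of the arrays compared was well above background, the difference is a bound against the dimmest detected signal of the other array, or the gene's own signal there if that was higher, and is written as at least N-fold.

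In the glomerulus, podocytes hold back plasma protein while water and small solutes pass into the tubule. The proximal tubule then takes back most of the filtrate, including glucose, phosphate, bicarbonate and filtered protein, and secretes organic anions and cations. The thick ascending limb and the distal convoluted tubule reabsorb salt, calcium and magnesium without water, and the collecting duct sets the final content of water, sodium and acid under the control of vasopressin and aldosterone.

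The tissue labels were borne out by the arrays. Of the 33 genes, 30 were well above background on the iron-free and 30 on the control kidney array, against 9 and 7 on the iron-free and control liver arrays and 6 and 7 on the deferoxamine and untreated FAO arrays. Over all genes the shares above background were 44.6% and 41.43% on the iron-free and control kidney arrays, 51.6% and 43.4% on the liver arrays, and 51.42% and 51.14% on the FAO arrays. Albumin (Alb), the main plasma protein of hepatocytes, had a signal of 23.1 and 29.2 in iron-free and control kidney, both not above background, and of 142826 and 86391 in iron-free and control liver. Transferrin receptor (Tfrc), whose RNA is stabilised when cells lack iron, had 7818.7 in iron-free and 981.2 in control kidney, 18779 in iron-free and 1430.7 in control liver, and 11242 in deferoxamine-treated and 3921.2 in untreated FAO cells. No gene spot was saturated. Of 264 blocks of spots on each array, 10 were noisy on iron-free and 32 on control kidney, 7 on iron-free and 51 on control liver, and 24 and 19 on the deferoxamine and untreated FAO arrays.

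**Figure D1:**
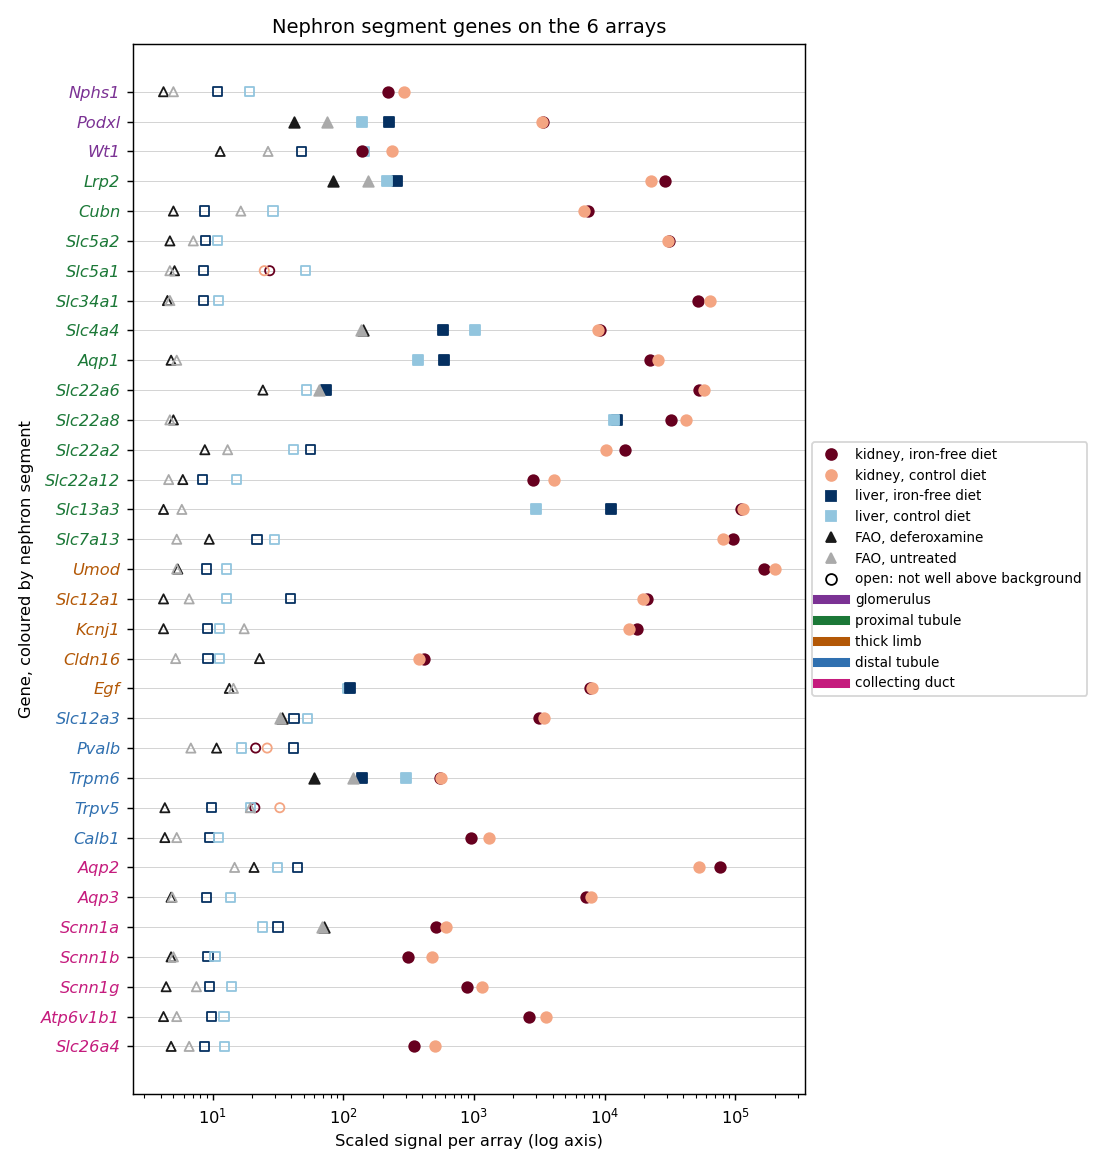
Scaled signal of each of the 33 genes on the 6 arrays, on a log axis, with genes grouped by nephron segment through the colour of their names. Filled symbols were well above background and open ones were not, and 30 of the 33 genes have filled kidney symbols on both diets.

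Of the 33 genes, 21 were above background on both kidney arrays and not on both arrays of liver or of FAO cells, a pattern that 2.74% of all 19958 genes had. Over these 21 genes the highest signal was 113.3 on the iron-free and 144.2 on the control liver array, and 24.2 and 64.9 on the deferoxamine and untreated FAO arrays. Another 3 genes, Aqp1, Slc22a8 and Slc13a3, were above background in kidney and liver, 2 genes, Slc12a3 and Scnn1a, in kidney and FAO cells, and 4 genes, Lrp2, Slc4a4, Podxl and Trpm6, on all 6 arrays. The last 3 genes were above background on neither kidney array. These were Slc5a1, the high-affinity glucose carrier, with 27.3 in iron-free and 24.8 in control kidney, Pvalb, a calcium buffer, with 21.3 and 26.1, and Trpv5, the apical calcium channel, with 21.0 and 32.6. For Pvalb, also a skeletal muscle protein, none of 7 muscle markers was above background on either kidney array.

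Nearly all segment genes were far higher in kidney than in liver. Every one of the 30 genes measured was at least 2-fold higher in kidney than in liver on the iron-free diet, against 24.5% higher, 13.8% lower and 38.3% either way over 10068 genes of the array. On the control diet 28 of 30 were higher and 0 lower, against 26.6% higher, 14.9% lower and 41.5% either way over 9337 genes. Their median difference was 6.11 on the iron-free diet and 6.15 on the control diet, with 21 and 23 of the 30 as bounds, against 0.18 and 0.21 over all genes. The genes were named for their place in the kidney, so this direction was built into the choice. Whether less RNA for a gene means fewer cells of its segment or less RNA for each cell cannot be told apart in tissue RNA. The split over the whole array moved with the scaling: 2466 genes were higher and 1394 lower in kidney on the iron-free diet and 2484 and 1387 on the control diet, and with each array set to the median of its own detected probes these became 1409 and 3523, and 1835 and 2166. That scaling shifted all genes by -0.81 and -0.44, while the median of the 30 was 5.3 and 5.72. On the iron-free diet 2 of the 30 calls were lost under it, with Slc22a8 at 0.55 and Wt1 at 0.73, and that of Wt1 alone under normexp background correction. The diet comparisons below use the same arrays.

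The 5 thick limb genes had signals of 414.8 to 164908 in iron-free kidney and 382.2 to 200247 in control kidney. Umod encodes uromodulin, the most abundant protein of normal urine, and had 164908 in iron-free and 200247 in control kidney, 9.0 and 12.7 in iron-free and control liver, and 5.4 and 5.3 in deferoxamine-treated and untreated FAO cells. It was therefore at least 4400-fold higher in kidney than in liver on the iron-free and at least 4450-fold on the control diet. Slc12a1, the sodium, potassium and chloride cotransporter that loop diuretics block, was at least 535-fold and at least 440-fold higher on the iron-free and control diets. For Kcnj1, the potassium channel that recycles potassium to that cotransporter, the bounds were 472-fold and 339-fold, and for Cldn16, a tight junction protein of magnesium reabsorption, 11.1-fold and 8.48-fold. Egf, the precursor of epidermal growth factor, was the thick limb gene with a trace in liver, 113.3 on the iron-free array (above background) and 108.4 on the control array (not above it), against 7785.5 and 8028.4 in iron-free and control kidney.

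Proximal tubule genes divided into those at background in liver and those shared with it. The phosphate cotransporter Slc34a1 had 52235 in iron-free and 63643 in control kidney, and 8.5 and 11.1 in iron-free and control liver. The glucose cotransporter Slc5a2, target of the gliflozin drugs, had 30902 and 30587 in iron-free and control kidney and 8.8 and 10.9 in the matching livers. Slc7a13, an acidic amino acid transporter of the late proximal tubule, had 95882 and 80400 in iron-free and control kidney, and 21.8 and 29.8 in liver. These 3 genes stood at background in both livers and both FAO arrays.

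Of the 13 proximal tubule genes, 5 were above background in both livers: Slc22a8, Slc13a3, Slc4a4, Aqp1 and Lrp2. Slc22a8, which takes organic anions from blood into tubule cells, had 32292 in iron-free and 42012 in control kidney and still 12499 and 11717 in the matching livers, so kidney was only 2.58-fold and 3.59-fold higher. Slc13a3 brings citrate-cycle dicarboxylates into the cell, and these are what Slc22a6 and Slc22a8 give up in exchange for organic anions. Its signal was 110482 and 115179 in iron-free and control kidney, and 11229 and 2990.7 in iron-free and control liver. Kidney thus exceeded liver 9.84-fold on the iron-free and 38.5-fold on the control diet. Slc22a6, the sister of Slc22a8, was not shared in this way, with 53092 and 57776 in iron-free and control kidney, and 73.5 and 51.9 in the livers. Slc4a4, the sodium bicarbonate cotransporter of the basolateral side, had 9185 and 8888.5 in iron-free and control kidney and 581.4 and 1019 in the matching livers, 15.8-fold and 8.72-fold higher in kidney. The water channel Aqp1 had 22135 and 25435 in iron-free and control kidney, and 586.8 and 372.4 in iron-free and control liver.

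The endocytic receptors of the proximal tubule, which recover filtered proteins including transferrin and haemoglobin, also differed from each other. Lrp2 (megalin) had 29191 and 22723 in iron-free and control kidney, 256.5 and 215.4 in iron-free and control liver, and 82.6 and 153.1 in deferoxamine-treated and untreated FAO cells, above background on all 6 arrays. Its partner Cubn (cubilin) had 7400.5 and 6910.5 in iron-free and control kidney, and at most 28.9 on any liver or FAO array, none of them above background.

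All 7 collecting duct genes were at background in liver. Aqp2, the water channel that vasopressin moves to the cell surface, was at least 1700-fold higher in kidney on the iron-free and 1180-fold on the control diet. Aqp3, which lets that water leave on the blood side, was at least 191-fold and 176-fold higher. The smallest bounds of the 7 were those of the sodium channel subunit Scnn1b, at 8.38-fold and 10.5-fold, and of Slc26a4 (pendrin), the chloride and bicarbonate exchanger of intercalated cells, at 9.21-fold and 11.2-fold.

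Among the remaining segments, the genes with the least contrast were Wt1 and Trpm6. Trpm6, a magnesium channel of the distal tubule, had 545.2 and 558.6 in iron-free and control kidney and 139.8 and 301.1 in iron-free and control liver, so kidney was 3.90-fold and 1.86-fold higher. Its other probe disagreed on both diets: it had 154.9 in kidney and 88.4 in liver on the iron-free diet, a difference of 0.81 and under 2-fold, and 179.2 in kidney, not above background, and 212.3 in liver on the control diet. Wt1, a transcription factor of podocytes, had 138.2 and 237.6 in iron-free and control kidney and 47.5 and 144.2 in the matching livers, and its other 2 probes were not above background on any array. It was at least 2.91-fold higher in kidney on the iron-free diet and at least 1.65-fold on the control diet. The podocyte genes Nphs1 (nephrin), the backbone of the slit diaphragm, and Podxl, the podocyte surface sialomucin also made by endothelium, were higher in kidney on both diets: Podxl by 14.9-fold on the iron-free and 23.9-fold on the control diet, and Nphs1 by at least 5.87-fold and 6.49-fold. In the distal tubule the thiazide-sensitive cotransporter Slc12a3 was at least 75.3-fold and 65.0-fold higher, and the calcium buffer Calb1 at least 25.1-fold and 28.9-fold.

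**Figure D2:**
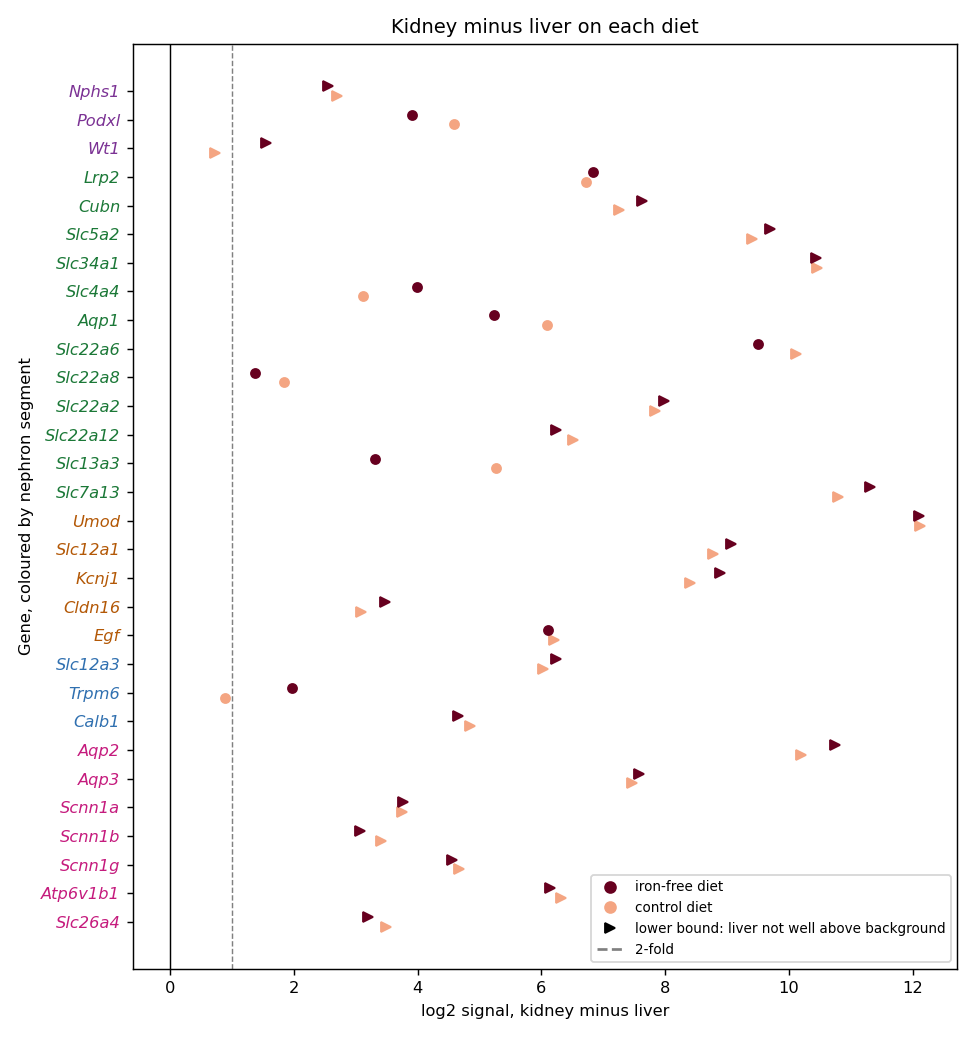
Difference in log2 signal between kidney and liver for the 30 genes measured, with the iron-free diet in dark and the control diet in light symbols, circles for values and triangles for lower bounds. All dark symbols lie beyond the dashed 2-fold line, and the light symbols of Wt1 and Trpm6 lie short of it.

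The DNA in front of 4 of the genes is shown here, with Umod and Slc34a1 as examples at background in liver, and Slc22a8 and Slc13a3 as examples shared with it. Each sequence is the 250 bases before the gene's start in RefSeq, build GRCr8, read 5′ to 3′ on the gene's strand, at chr1:183261017-183261266 (minus strand) for Umod, chr17:9238984-9239233 (minus) for Slc34a1, chr1:214927034-214927283 (plus) for Slc22a8 and chr3:174623894-174624143 (minus) for Slc13a3. Capitals mark 3 motifs on either strand. The first is GTTAAT, bound by the hepatocyte nuclear factor HNF1 as one side of its palindrome. The second is TATAAA, the letters of the TATA box, with looser forms left unmarked. These letters began 43 bases before the start in Slc34a1, but 219 and 173 bases before it in Umod, so the Umod matches lie far from the start. The third is the core of the hypoxia response element, which reads ACGTG.
Umod: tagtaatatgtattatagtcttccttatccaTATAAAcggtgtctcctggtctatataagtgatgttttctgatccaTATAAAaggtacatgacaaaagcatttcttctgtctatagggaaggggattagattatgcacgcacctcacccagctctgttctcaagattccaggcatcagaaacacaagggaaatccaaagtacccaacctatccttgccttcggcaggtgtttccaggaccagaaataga
Slc34a1: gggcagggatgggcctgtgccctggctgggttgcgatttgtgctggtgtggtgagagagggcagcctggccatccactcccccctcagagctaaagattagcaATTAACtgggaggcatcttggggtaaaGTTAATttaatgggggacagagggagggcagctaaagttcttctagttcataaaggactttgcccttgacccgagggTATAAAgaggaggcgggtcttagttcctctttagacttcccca
Slc22a8: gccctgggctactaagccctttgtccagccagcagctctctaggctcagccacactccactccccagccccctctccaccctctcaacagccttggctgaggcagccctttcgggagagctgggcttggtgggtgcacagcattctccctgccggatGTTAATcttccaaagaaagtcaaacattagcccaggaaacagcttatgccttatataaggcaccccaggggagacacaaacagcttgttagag
Slc13a3: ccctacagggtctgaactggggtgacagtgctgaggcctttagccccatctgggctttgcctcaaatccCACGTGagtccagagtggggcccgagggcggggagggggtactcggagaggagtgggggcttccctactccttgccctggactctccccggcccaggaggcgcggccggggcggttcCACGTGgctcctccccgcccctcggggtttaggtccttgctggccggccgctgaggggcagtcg

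RefSeq windows were used for 29 of the 33 genes, without Scnn1a, Slc7a13, Calb1 and Slc22a6. The letters GTTAAT or ATTAAC stood in the windows of 3 of the 29 genes, Slc34a1, Slc22a8 and Aqp2, and in 6.45% of all 33469 windows. TATAAA or its reverse complement stood in 6 of the 29, against 12.9% of all windows. ACGTG, which reads as CACGT on the other strand, stood in 7 of the 29, against 16.6%, and the Slc13a3 window held it on both strands inside each of its CACGTG runs. The letters CAAAGTCCA and TCAAGGTCA, of HNF4 and of oestrogen-related receptors, were in 0 of 29 windows, against 0.338% and 0.388%. These motifs were picked with the windows in view, and a match is a run of letters and not a measured binding site.

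Within the kidney, no segment gene differed 2-fold between iron-free and control diet. The comparison asks whether 4 weeks without dietary iron changes nephron gene expression. None of the 30 genes above background was called in either direction, against 3.11% higher, 1.26% lower and 4.37% either way over 8952 genes. With so small a share over all genes, no call among 30 is not set apart from the array. Of the 30, 28 were within 1.5-fold. Their median difference was -0.13 against -0.03 over all genes, with 11 genes above 0 and 19 below. Below 0 were also 58.6% of the 8078 genes measured on both kidney arrays. When each array was set to the median of its own detected probes, kidney differences over all genes shifted by 0.20 and the median of the 30 turned to 0.07. Differences of this size therefore have a sign that rests on the scaling for the genes nearest to 0.

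**Figure D3:**
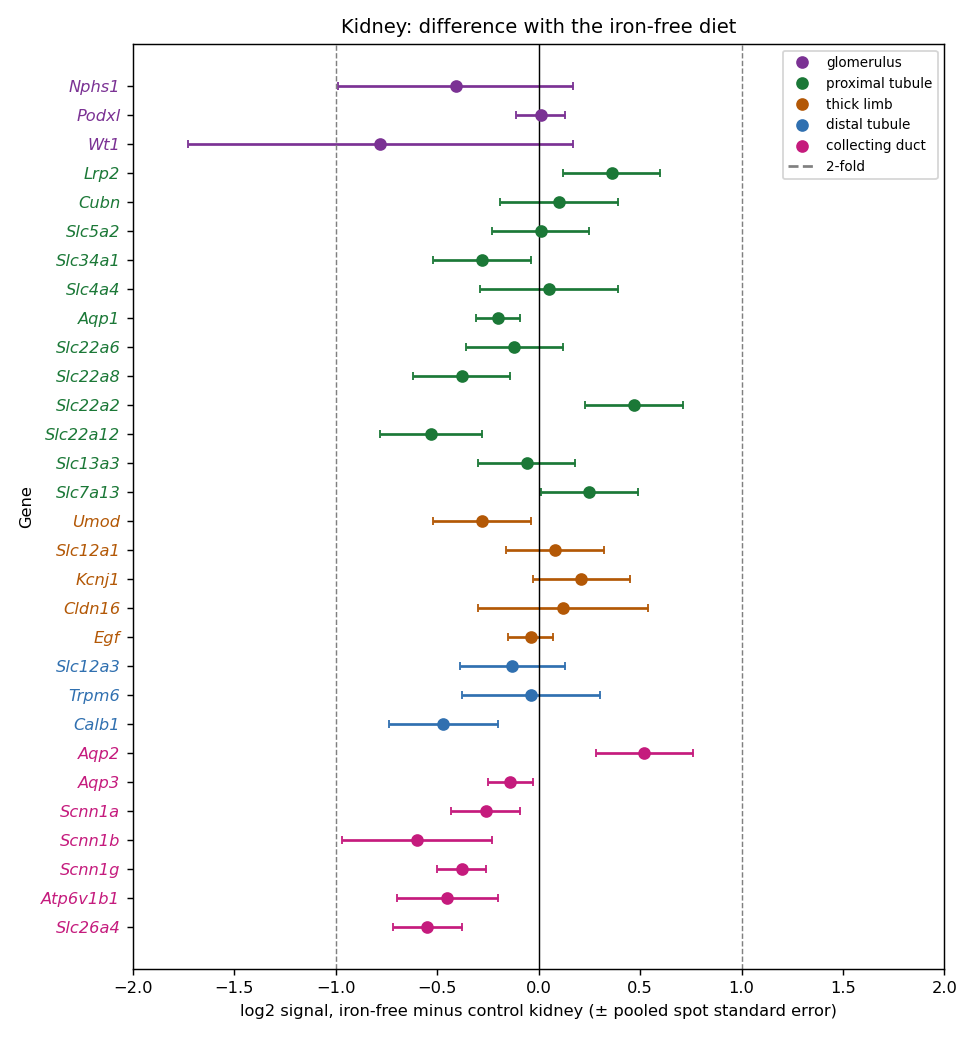
Difference in log2 signal between iron-free and control kidney for the 30 genes above background, coloured by segment, with bars of ± 1 pooled spot standard error. All points lie between the dashed 2-fold lines, and 6 of the 7 collecting duct points lie below 0.

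By segment the medians were -0.41 for the 3 glomerular genes, -0.02 for 12 proximal tubule genes, 0.08 for 5 thick limb genes, -0.13 for 3 distal tubule genes and -0.38 for 7 collecting duct genes. The glomerular and collecting duct medians were below 0 and the thick limb median above 0 under each of the 10 alternative ways of computing the values. Those of the proximal and distal tubule took both signs. The alternatives reuse the same arrays, so a steady sign is not a replicate check. The thick limb median was 0.01 at its lowest, and its genes had spot standard errors of 0.11 to 0.42. With each array set to its own median, 5 of the 7 collecting duct genes were below 0.

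The collecting duct held both the gene furthest above 0 and several of those furthest below it. Aqp2 had 76252 in iron-free and 53050 in control kidney, a difference of 0.52 ± 0.24. Its 2 spots read 75232 and 77286 on the iron-free array and 52447 and 53661 on the control array, so the spots did not overlap. The sodium channel, which aldosterone stimulates, lay below 0 in the 3 subunits measured: Scnn1a, Scnn1b and Scnn1g were at -0.26 ± 0.17, -0.60 ± 0.37 and -0.38 ± 0.12. The 10 spots of Scnn1g ran from 820.7 to 998.4 on the iron-free and from 1047.1 to 1247 on the control array, again with no overlap. The 2 spots of Scnn1b, at 314.1 and 314.7 against 443.1 and 509.6, did not overlap either. Those of Scnn1a, at 466.6 to 558.1 and 538.3 to 694.3, overlapped. Slc26a4 was at -0.55 ± 0.17 with 345.5 in iron-free and 505.7 in control kidney, and its spots, 256.2 to 435.6 and 380.1 to 638.0, overlapped. Atp6v1b1, a subunit of the proton pump of intercalated cells, had 2619 in iron-free and 3581.4 in control kidney, at -0.45 ± 0.25. Its spots, 2549.5 and 2690.3 against 3561.5 and 3601.4, did not overlap. Aqp3 was at -0.14 ± 0.11. Spots without overlap were not particular to the collecting duct and also occurred at smaller differences. The spots of Slc12a1, at 0.08, read 20885 and 21069 on the iron-free and 19296 and 20345 on the control array. Those of Slc22a6, at -0.12, read 51756 and 54463 against 57553 and 57999. How often spots lay apart over all genes was not counted.

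**Figure D4:**
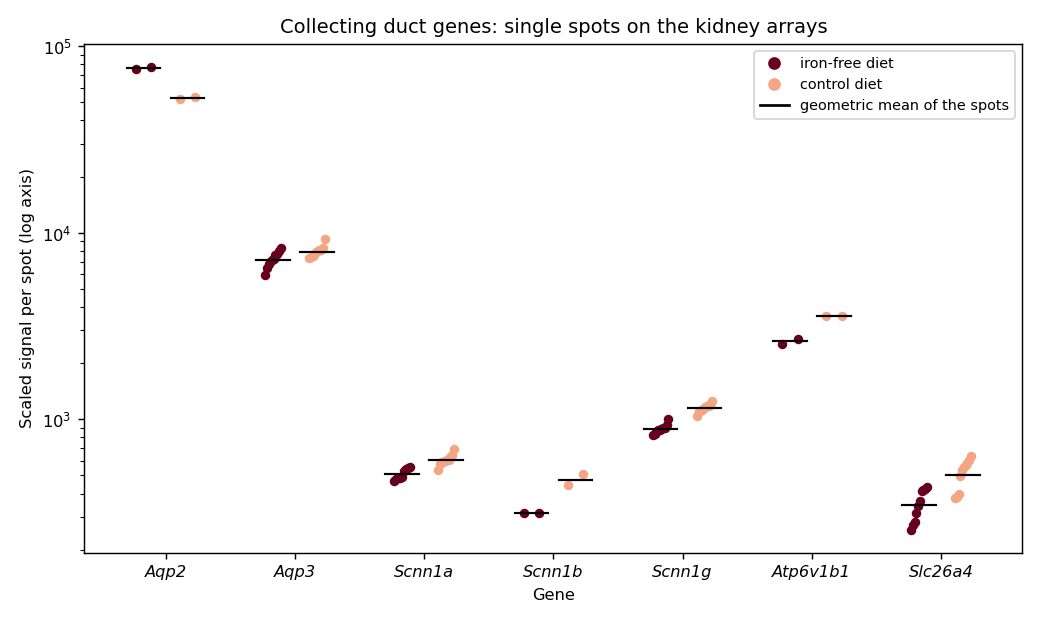
Scaled signal of every spot of the 7 collecting duct genes on the iron-free (dark) and control (light) kidney arrays, on a log axis, with the geometric mean of the spots as a line. The spots of Aqp2 are higher and those of Scnn1b, Scnn1g and Atp6v1b1 lower on the iron-free array without overlap. Those of Aqp3, Scnn1a and Slc26a4 overlap. Spots are repeats on 1 array and not animals, and spots without overlap also occurred in other segments, as for Slc12a1 and Slc22a6.

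Most proximal tubule genes stayed close to 0. Slc22a12, the urate exchanger, was furthest below it at -0.53 ± 0.25, with 2843.3 in iron-free and 4098.9 in control kidney. Slc22a2, the carrier that takes organic cations from blood, was furthest above it at 0.47 ± 0.24, with 14200 and 10240. Slc22a6 at -0.12 ± 0.24 and Slc22a8 at -0.38 ± 0.24 lay between them, so the 4 organic ion carriers did not share 1 direction. The receptors Lrp2 and Cubn were at 0.36 ± 0.24 (0.29 by the other Lrp2 probe) and 0.10 ± 0.29. Slc34a1 was at -0.28 ± 0.24, Slc5a2 at 0.01 ± 0.24, Slc7a13 at 0.25 ± 0.24, Slc13a3 at -0.06 ± 0.24, Aqp1 at -0.20 ± 0.11 and the bicarbonate cotransporter Slc4a4 at 0.05 ± 0.34.

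In the thick limb, Umod was at -0.28 ± 0.24 and Kcnj1 at 0.21 ± 0.24, with -0.01 and -0.16 by the 2 other Kcnj1 probes. Slc12a1, Cldn16 and Egf were within 0.12 of 0, though the other Egf probe was at -0.33. In the distal tubule Calb1 was at -0.47 ± 0.27, with 940.3 in iron-free and 1302.1 in control kidney, while Slc12a3 and Trpm6 were at -0.13 ± 0.26 and -0.04 ± 0.34. Of the glomerular genes, Podxl, read from 9 and 10 spots, was at 0.01 ± 0.12. Nphs1 was at -0.41 ± 0.58, but its other probe was above background on the iron-free array alone, at 115.6 against 95.6, at least 0.14 higher. The glomerular median is the value of Nphs1 and so rests on 1 probe of it. Wt1 was at -0.78 ± 0.95, and at -1.52 with noisy blocks ignored, which took away 1 of its 2 control spots. That made Wt1 the 1 gene at least 2-fold lower under any alternative with the 2-fold rule.

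No further gene listed for these segments passed the size rule either. Of 101 further genes listed for the 5 segments, 97 were on the array and 83 measured in kidney. None of the 83 was at least 2-fold higher or lower (median -0.10), against 3.11% higher, 1.26% lower and 4.37% either way over all genes. By list the medians were -0.03 over 6 glomerular, -0.24 over 39 proximal tubule and -0.06 over 10 thick limb genes. They were -0.02 over 10 distal tubule and -0.13 over 18 collecting duct genes, so the proximal tubule list was the lowest. Of the collecting duct list the gene furthest from 0 was Aqp4, the basolateral water channel of the inner collecting duct, at 0.94 ± 0.31. Aqp4 had 1418.1 in iron-free and 740.8 in control kidney. In the proximal tubule, thick limb and distal tubule lists the gene furthest from 0 was Slc7a7, a basolateral amino acid exchanger, at -0.78 ± 0.37, Slc14a2, the urea transporter of the inner medulla, at 0.47 ± 0.45, Kcnj16, a basolateral potassium channel subunit, at 0.78 ± 0.20, and, among kidney transcription factors, Tfcp2l1 of the distal nephron at 0.69 ± 0.36.

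None of the 7 hormone and injury genes measured in kidney passed 2-fold, against 4.37% either way over all genes, a share from which 7 genes cannot be set apart. Of the 7, 6 were above 0 (median 0.43), while 58.6% of all genes measured on both kidney arrays were below 0. Erythropoietin (Epo), the hormone that drives red cell production, had 55.1 in iron-free and 31.7 in control kidney, neither above background. From the further proximal tubule list, and so not among these 7, Cyp27b1, which activates vitamin D, was at -0.77 ± 0.58. Cyp24a1 of the same list, which inactivates vitamin D, was not above background. Kl (klotho), the coreceptor of the phosphate hormone FGF23, was at 0.08 ± 0.21. Of the injury markers listed, Havcr1 and Lcn2 were not above background on either kidney array. The other injury markers are among the 7 genes measured, which ran from -0.19 to 0.96. Of 8 erythroid genes 3 were at least 2-fold higher in iron-free kidney, against 3.11% over all genes, and Tfrc was among the 3. The 5 erythroid genes measured on both kidney arrays ran from -0.23 to 3.49, with a median of 1.18. The summed signal of all 8 was 252304 against 235228 in control kidney, where Hba1 alone had 203233. The part of these erythroid genes in the differences above was not tested.

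In liver, 9 of the 33 genes gave a value, and 2 were called. Slc13a3 was 3.75-fold higher in iron-free than in control liver (1.91 ± 0.27), with spots of 9725.2 and 12965 on the iron-free and 2904 and 3080 on the control array. Its difference ran from 1.68 to 2.49 over the 10 alternatives, and was 2.18 without the 1 iron-free spot that lay in a noisy block. Trpm6 was 2.15-fold lower (-1.11 ± 0.40), and -1.26 by its other probe. Without spots in noisy blocks, where 1 of its control spots lay, Trpm6 was at -0.88 and no longer called. Over 10172 genes 6.52% were higher, 3.01% lower and 9.53% either way, so 1 gene of 9 in each direction is too few to set apart from that background.

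The other liver values lay within 2-fold. Aqp1 was at 0.66 ± 0.15, with spots of 550 to 639.9 on the iron-free and 338.7 to 538.9 on the control array and no overlap. Podxl was at 0.69 ± 0.22, again without overlap, at 209.8 to 243.9 and 101.9 to 173.1. Both genes are also made by endothelium and Aqp1 by bile ducts. The summed signal of 7 endothelial markers was 11320 in iron-free and 14636 in control liver, where Kdr alone had 11199. The 5 measured had a median of -0.12, with 2 above 0 and 3 below. For 7 bile duct markers the sum was 4792.5 and 4045.6, and Slc4a2 alone had 3154.4 in control liver. Of these markers 1 was at least 2-fold higher and 1 lower. The part of either cell type in the Aqp1 and Podxl values was not tested. Slc4a4 was at -0.81 ± 0.40 by 1 spot and -0.30 by its other probe, Lrp2 at 0.25 ± 0.35 and Slc22a8 at 0.09 ± 0.28. Slc22a6 and Egf were above background on the iron-free array alone, with bounds of 1.42-fold and 1.05-fold higher.

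Of the further segment genes, 5 of 41 measured in liver were at least 2-fold higher and 0 lower, against the 6.52% higher over all genes. They were 3 of 6 collecting duct, 1 of 19 proximal tubule and 1 of 6 glomerular genes, with 0 of 8 distal tubule and 0 of 2 thick limb genes. Rhbg, an ammonium transporter also made by hepatocytes, had 356.1 in iron-free and 76.5 in control liver (2.22 ± 0.58). Slc4a1, the anion exchanger of intercalated cells and of red cells, had 946.2 and 293.4 (1.69 ± 0.33), and the keratin Krt7, also a bile duct marker, 795.2 and 323.9 (1.30 ± 0.31). Erythroid markers moved in the same comparison, with 6 of 8 at least 2-fold higher and a summed signal of 453923 in iron-free against 330697 in control liver. One of the 6 was Tfrc, which also rose in FAO cells, and the marker with the largest signal in that sum was at 0.01. Their part in the Slc4a1 value was not tested.

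In FAO cells, which made all 10 hepatocyte markers, 7 of the 33 genes gave a value. Trpm6 had 59.3 in deferoxamine-treated and 118.9 in untreated cells, 2-fold lower (-1.0 ± 0.65) and so at the very edge of the size rule. Its spots read 58.3 and 60.4 with deferoxamine and 88.0 and 160.8 without, with no overlap, and without the untreated spot in a noisy block the difference was -0.60. Its other probe read 24.9 with deferoxamine and 25.1 without, too dim for a fold. Slc22a6 was above background in untreated cells alone, at 64.9 against 24.2 with deferoxamine, at least 2.68-fold lower. It was at -1.15 without the deferoxamine spot in a noisy block. Over 10695 genes 6.44% were at least 2-fold lower, 4.05% higher and 10.5% either way. Of the further segment genes, 7 of 37 were lower and 0 higher, among them Rhbg, at least 6.12-fold lower with 24.3 in deferoxamine-treated and 148.5 in untreated cells (a gene picked after its values were seen).

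**Figure D5:**
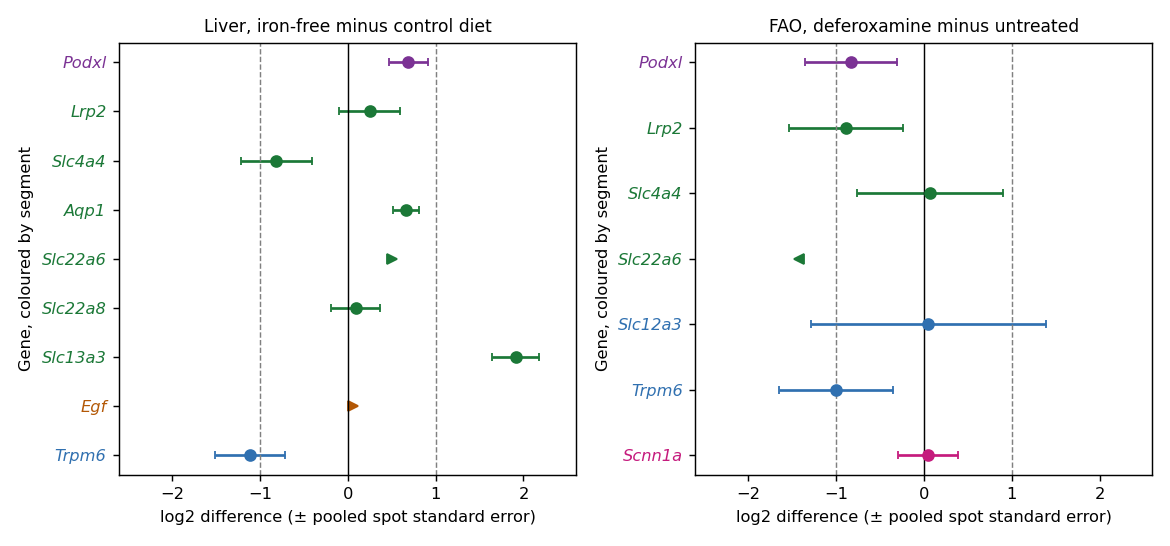
Differences in log2 signal for the genes with a value in liver (left, iron-free minus control diet) and in FAO cells (right, deferoxamine minus untreated), coloured by segment, with ± 1 pooled spot standard error and triangles for bounds. Slc13a3 in liver is the 1 point above the upper 2-fold line. Trpm6 lies at or below the lower line in both panels, and the bound of Slc22a6 lies below it in FAO cells.

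Lrp2 was at -0.89 ± 0.65 in FAO cells by the chosen probe and at -0.03 by the other, whose signals were 170.2 with deferoxamine and 174.2 without. The probes thus disagreed, and 1 deferoxamine spot of the chosen probe lay in a noisy block. Podxl was at -0.83 ± 0.52, with spots of 33.4 to 50.9 on the deferoxamine and 67.2 to 87.0 on the untreated array and no overlap. The sodium channel subunit Scnn1a had 71.3 with deferoxamine and 68.7 without, at 0.05 ± 0.34, while its partners Scnn1b and Scnn1g were at background both with and without deferoxamine. Slc4a4 was at 0.07 ± 0.83 by 1 spot, and its other probe was at least 0.80 higher on the log2 scale. Slc12a3 had 33.7 with and 32.6 without deferoxamine (0.05 ± 1.34), but its other probe, at 4.8 on each FAO array, was at background.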

How the data were processed

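RNA pooled per group was labelled with Cy3, per the labels' protocols, and hybridised to 6 arrays that shared 1 slide. Per the file headers, the authors read the spots of array design 028279 (build rn4) into intensity values using Feature Extraction 10.7.3.1. The deposited intensity used was gProcessedSignal, a background-subtracted linear value, and the authors' deposited series table adds log2 values, used to pick probes and as an alternative. From 58717 gene spots per array, outlier-flagged spots (680 to 1215) were dropped and the remaining spots of a probe averaged as log2 intensity, for 30367 probes. Arrays were then set to equal 75th percentiles, taken over the 9091 probes (29.9%) above background on all 6. A probe was above background when all its spots were. Scaled signal multiplies this back to a common level. Probes without a gene ID (6095) were left out. Noisy blocks of 16 by 16 spots had a median spot deviation over 2 times the array's typical one. The steps were tested on simulated data (Python 3.11.15, pandas 2.3.3, numpy 2.4.6). Normexp ran in limma 3.58.1 (R 4.3.3) on median signals, since the planned mean signal column is not in the scanner files used here. The genes, segments, lists and tests were chosen with earlier results of these data known; all 33 genes are named, and further list genes by the largest difference per list (for some lists that gene is not reported here), with a few others fixed by name or, where said, chosen after their values were seen. Array number and signal over background limit precision. All 33 gene IDs were found in the RefSeq gene table of GRCr8, used for names.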

Additional observations from a re-analysis of the deposited data

Results flagged for a closer look

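Of the 7 genes measured on all liver and kidney arrays, 4 had diet differences of opposite sign in the 2 tissues. Of all 7035 genes measured on these arrays 41.7% had opposite signs, so 4 of 7 is not set apart from that share. The difference of the differences, kidney minus liver, was -1.97 for Slc13a3 (-0.06 in kidney and 1.91 in liver), -0.86 for Aqp1 (-0.20 and 0.66), 0.86 for Slc4a4 (0.05 and -0.81) and -0.47 for Slc22a8 (-0.38 and 0.09). With 1 array per tissue and diet these differences were not tested. In kidney all 4 values were under 2-fold, and the signs of Slc13a3 and Slc4a4 there turned under at least 1 alternative, as did that of Slc22a8 in liver; Aqp1 in kidney was at 0.0 under 1 of them.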

How the results depend on the processing

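The alternatives were 4 other scalings (75th percentile over all gene probes, median of each array's own detected probes, median of the probes detected on all 6 arrays, the authors' log2 values), normexp background correction, noisy blocks ignored, outlier spots kept, background judged by any spot, no filter on dim probes, the mean of a gene's probes, and a 1.5-fold size rule. No called value changed sign. Of the counts of called genes 86 stayed within 1.5 times and 24 moved, and of the medians over genes 40 stayed and 10 moved; the cause was not tested. In kidney, genes lower on the iron-free diet numbered 1 (Wt1) with noisy blocks ignored and 2 under the 1.5-fold rule. In liver, 4 were higher and 0 lower (median 0.83) with each array's own median, 0 were lower under normexp and with noisy blocks ignored, 2 were higher and 4 lower with any spot, 3 and 4 (median -0.31) without a filter, and 3 and 2 under the 1.5-fold rule. In FAO cells, 1 was lower under each of the 4 scalings and with noisy blocks ignored, 0 under normexp, 1 was higher and 6 lower both with any spot and without a filter, and 4 were lower under the 1.5-fold rule. The kidney minus liver median was 5.86 on the iron-free and 5.84 on the control diet with the 75th percentile over all probes and with the authors' values, 5.3 and 5.72 with each array's own median, and 4.48 and 5.0 under normexp, and 1 gene was lower on the control diet without a filter. Over all genes, each array's own median made liver calls 2120 higher and 78 lower (663 and 306 otherwise) and kidney diet calls 402 and 79 (278 and 113). No paired analysis was possible because each group is 1 array, and leaving out a replicate was not possible for the same reason. Low signal over background limits dim genes such as Wt1 in kidney and Trpm6 in FAO cells.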
